A study of Mus musculus with 6 samples.

Results

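The BCL2 family decides whether the mitochondria of a cell release cytochrome c, and 10 of its genes were examined here in cystic mouse kidneys. They were chosen by symbol from 23276 genes and comprised the pro-survival genes *Bcl2*, *Bcl2l1* and *Mcl1*, the pore formers *Bax* and *Bak1*, and the BH3-only genes *Bbc3*, *Pmaip1*, *Bid*, *Bik* and *Bmf*. All 10 were found, in 23 of the 54721 transcript rows of the table, of which 11 carried a RefSeq mRNA identifier and 12 were assembled from the reads. Total RNA came from whole kidneys of 3 mice labelled KspCre; *Pkd1* F/RC (SKO) and from 3 mice that carried miR-17∼92 F/F as well (DKO), all at postnatal day 22 per the labels. Both groups carried a floxed *Pkd1* allele, the hypomorphic RC allele (the mouse form of a human *PKD1* missense mutation) and the KspCre transgene, which recombines floxed alleles in renal tubule cells only. The cluster was floxed in the DKO mice, so that their other kidney cells kept it, and no mice with intact *Pkd1* were analysed here.

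The value given for a transcript is the authors' mean abundance over all 6 kidneys, in CPM, the counts of a transcript scaled to the total counts of its library. That mean joins both groups, so it describes cystic kidneys as a whole. It cannot show whether a gene differed between SKO and DKO kidneys, which is the comparison the labels imply and which was not tested here. The spread between mice and the depth of each library are unknown, so no level has an error. The targeted genes were both present in the pooled mean. *Pkd1* stood at 31.8 CPM in the highest of its 3 rows, and *Mir17hg*, the host transcript of the cluster, at 4.21 CPM in the higher of its 2 rows. Neither value checks the group labels. Markers of the labelled tissue were present, with *Umod* at 1022 CPM, *Slc34a1* at 1030.2 CPM and *Aqp2* at 77.7 CPM. The distal tubule gene *Slc12a3* stood at 169 CPM but *Pvalb*, of the same segment, at only 3.14 CPM. Of 3 genes known from outside the kidney, *Gfap* (0.198 CPM) and *Myh6* (0.171 CPM) were low, whereas the liver gene *Alb* stood at 13.4 CPM. The macrophage genes *Csf1r*, *Cd68* and *Emr1* stood at 25.3, 5.19 and 4.49 CPM. Of the further leukocyte genes listed, the T cell gene *Cd3e* stood at 0.160 CPM, *Cd79a* at 0.311 CPM and *Ptprc*, not specific to lymphocytes, at 8.20 CPM. In bulk RNA, fewer cells of a type and less RNA per cell cannot be told apart.

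Proteins of the family meet at the outer mitochondrial membrane. BAX and BAK1 form the pores through which cytochrome c leaves, the pro-survival proteins hold them in check, and the BH3-only proteins, which are made or released under stress, bind the pro-survival proteins or activate the pore formers. In polycystic kidneys, cell death and proliferation both accompany cyst growth. The miR-17∼92 cluster, which the study deleted, is known for lowering the BH3-only protein BIM, the product of *Bcl2l11*.

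The 6 main mature miRNAs of the cluster are shown because they define which letters were looked for in the members' 3′-UTRs. They are RefSeq sequences on the forward strand of chromosome 14 (GRCm38.p6), with the seed, bases 2 to 8, in capitals.
miR-17-5p: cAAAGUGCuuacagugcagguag
miR-20a-5p: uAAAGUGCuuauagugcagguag
miR-18a-5p: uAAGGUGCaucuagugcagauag
miR-19a-3p: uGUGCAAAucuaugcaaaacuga
miR-19b-3p: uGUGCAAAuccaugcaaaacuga
miR-92a-3p: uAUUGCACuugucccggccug
They fall into 4 seeds, since miR-17 and miR-20a share one and miR-19a and miR-19b share another.

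A 7-base match to at least 1 seed was present in the 3′-UTRs of 5 members (*Mcl1*, *Bmf*, *Bcl2*, *Bid* and *Bak1*), with 7 matches in all. The matched letters were GCACTTT for miR-17 and miR-20a, GCACCTT for miR-18a, TTTGCAC for miR-19 and GTGCAAT for miR-92a, on the sense strand of the transcript only. Neighbouring matches could overlap, but none of the 7 did. Over all 17822 genes with a 3′-UTR, 26.6% held a match to at least 1 of the 4 seeds. The members' 3′-UTRs were longer than most, with a median of 1452 bases against 792 over all these genes, and longer 3′-UTRs hold more matches of any kind. Among genes with a 3′-UTR within 20% of the same length, a match to any seed was held by 74.4% for *Bcl2*, 63.8% for *Bmf*, 49.3% for *Mcl1*, 35.7% for *Bid* and 29.2% for *Bak1*. For the members with no match these shares were 46.2% for *Pmaip1*, 35.5% for *Bcl2l1*, 24.6% for *Bbc3*, 9.69% for *Bik* and 4.21% for *Bax*. Matches were thus common at these lengths, and their number in the members is a description only. Each match is also set beside the share of such genes that hold a match to the same seed. The sequences below are shown with the match in capitals and up to 10 bases on each side.
*Mcl1* and miR-92a: ccttgtgaGTGCAATaggggactct
*Mcl1* and miR-17: ggacttcagaGCACTTTatgtagttga
*Bmf* and miR-19: tctttcctaaTTTGCACaaaggtactg
*Bmf* and miR-17: gggagggtggGCACTTTgcctggccct
*Bcl2* and miR-17: agttaagggaGCACTTTcatgtagttc
*Bid* and miR-17: aagagtgcatGCACTTTtagaatatga
*Bak1* and miR-92a: gaaataaactGTGCAATgcccccaaca
Both *Mcl1* matches and the miR-19 match of *Bmf* were followed by an A, the form in which a seed match is extended opposite the first base of the miRNA. Such a match to any seed was held by these 2 members and by 10.4% of all 17822 genes, a share that does not allow for length.

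The matches lay in the last exon of each gene in GENCODE's annotation of GRCm38, which is the assembly mm10. In *Mcl1* the miR-92a match began 9 bases after the stop codon (chr3:95660832-95660838, forward strand) and the miR-17 match lay far downstream of it (chr3:95662643-95662649). Among genes with a 3′-UTR of similar length, 11.0% held the former and 21.3% the latter. In *Bmf* the miR-19 match lay at chr2:118531016-118531022 and the miR-17 match at chr2:118529727-118529733, both on the reverse strand, and 25.7% and 30.9% of similar genes held them. The *Bcl2* match (chr1:106540041-106540047, reverse strand) was found in a 3′-UTR of 5086 bases, a length at which 39.0% of genes held it. The *Bid* match (chr6:120892909-120892915, reverse strand) was near the end of its 3′-UTR and was held by 14.2% of similar genes. That of *Bak1* (chr17:27019820-27019826, reverse strand) was also near the end, at bases 1105 to 1111 of 1121, and was held by 5.71%. No match to the miR-18a seed was present in any member. *Bcl2l1*, *Bax*, *Bbc3*, *Pmaip1* and *Bik* had no match to any seed, which says only that these letters are not in the 3′-UTRs searched. *Bcl2l11*, examined beside the members, held 5 matches to 3 seeds in 4218 bases, a length at which 67.1% of genes held a match to any seed. The shares for its 3 seeds were 31.8% for miR-17, 29.0% for miR-19 and 17.3% for miR-92a. A match is a description of sequence, and whether any of these genes responded to loss of the cluster was not tested.

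**Figure D1:**
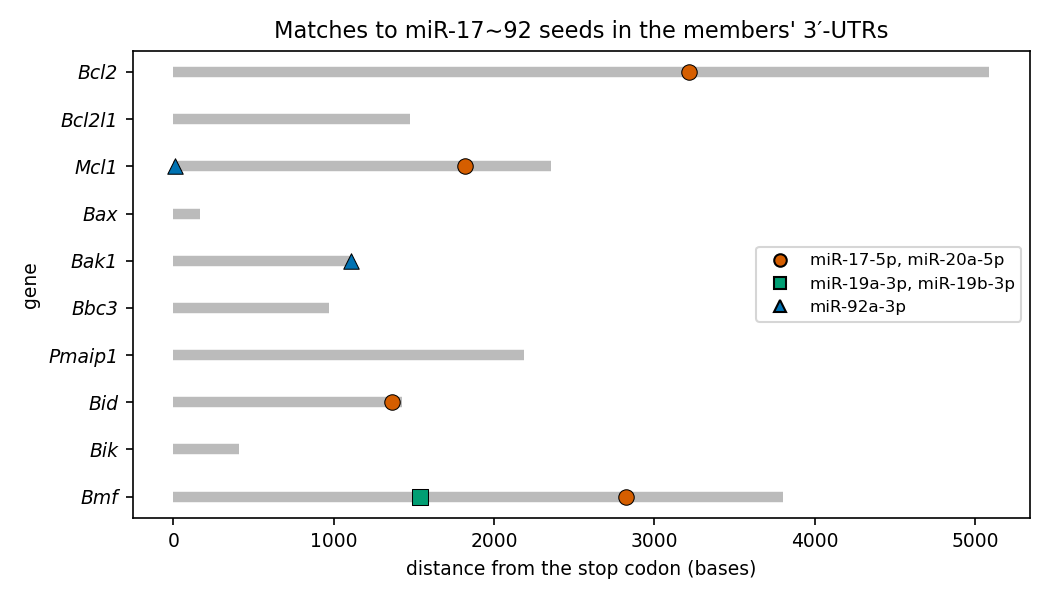
Each grey bar is the 3′-UTR of a member, drawn to scale as distance from the stop codon in bases, and each symbol is a 7-base match to a seed of the named miRNAs. The 7 matches fall in *Mcl1*, *Bmf*, *Bcl2*, *Bid* and *Bak1*, and the shortest 3′-UTR, that of *Bax* with 165 bases, has none.

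All 10 genes were detected above 1 CPM in these kidneys, and none of their rows lay at the floor of the table (0.0263 CPM), where 4617 rows sat. The pro-survival genes *Mcl1* and *Bcl2l1* were the most abundant and the BH3-only genes *Bbc3* and *Bik* the least. The other 6 lay within a narrow band, from 11.0 CPM for *Pmaip1* to 16.5 CPM for *Bmf*. By comparison, 55.9% of all genes reached 1 CPM, and the median of those that did was 12.6 CPM. CPM does not allow for transcript length, so genes are ordered further on by CPM per kilobase.

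**Figure D2:**
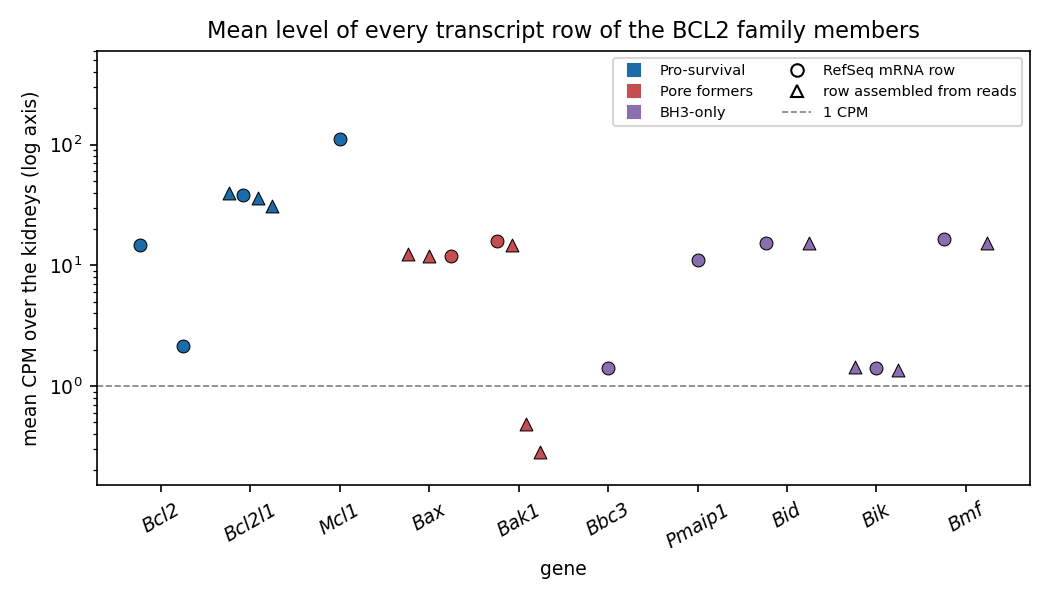
Mean CPM over the 6 kidneys (log axis) of each of the 23 transcript rows, by gene and coloured by role, with RefSeq rows as circles, assembled rows as triangles and 1 CPM as the dashed line. The rows of a gene lie close together except in *Bcl2* and *Bak1*, and 2 rows of *Bak1* lie under 1 CPM.

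*Mcl1*, which encodes a short-lived pro-survival protein that restrains BAK1 in particular, had a single row at 111 CPM. This mean was at or above that of 97.8% of all genes. *Bcl2l1*, the gene of BCL-XL, was listed in 4 rows, at 39.7, 38.1, 36.0 and 30.8 CPM, the second of them the RefSeq transcript. Its highest row was at or above 90.5% of all genes. *Bcl2*, the founding member of the family, was lower than both. Its RefSeq transcript of 2 exons and 7191 bases stood at 14.6 CPM. The other RefSeq row, a transcript of 2841 bases that reads from the first exon into the intron, stood at 2.14 CPM, so that the rows differed 6.82-fold. Part of the exonic sequence of *Bcl2* (558 bases) is shared with an antisense gene on the opposite strand, for which no level was listed.

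The pore formers *Bax* and *Bak1* had similar CPM values. *Bax* was listed at 12.5, 12.1 and 12.1 CPM, and the last 2 rows, 1 assembled and 1 RefSeq, held the same value. Identical values within a gene were common in the table, in 1822 (18.8%) of 9684 genes with at least 2 rows above the floor. *Bax* shares 192 exonic bases with the annotated gene *Gm45808* on the same strand, for which no level was listed. Reads there cannot be told apart by gene and may add to the values of *Bax*. *Bak1* stood at 15.8 CPM in its RefSeq row and 14.8 CPM in an assembled row, and was at or above 76.1% of all genes. A further pair of assembled *Bak1* rows stood at only 0.488 and 0.286 CPM. These carry the name of *Bak1*, which lies on the reverse strand, but the table numbers them among genes of the forward strand. All 10 RefSeq neighbours of one and all 11 of the other within 10 places lie on that strand of chromosome 17. *Ggnbp1*, a gene on the forward strand at 3.24 CPM, shares 614 exonic bases with *Bak1*. Which strand the reads of the low rows came from was not tested, and these rows were singled out after their values were seen.

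Among the BH3-only genes, *Bmf*, *Bid* and *Pmaip1* were well above *Bik* and *Bbc3*. *Bmf*, whose protein is held at the cytoskeleton and is known for its part in the death of detached epithelial cells, had rows at 16.5 and 15.3 CPM. *Bid*, which caspase-8 cleaves to link death receptors to mitochondria, had rows that both rounded to 15.4 CPM. *Pmaip1*, the gene of NOXA, which binds MCL1, had a single row at 11.0 CPM. These genes were at or above 76.9%, 75.7% and 69.5% of all genes.

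*Bik*, whose protein acts largely at the endoplasmic reticulum, had rows at 1.44, 1.41 and 1.36 CPM. *Bbc3*, the gene of the p53-induced protein PUMA, had a single row at 1.41 CPM. Both were near the median of all genes, at the 46.2 and 46.1 percentile. Among the 13001 genes with at least 1 CPM they were near the bottom, at the 3.75 and 3.44 percentile.

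**Figure D3:**
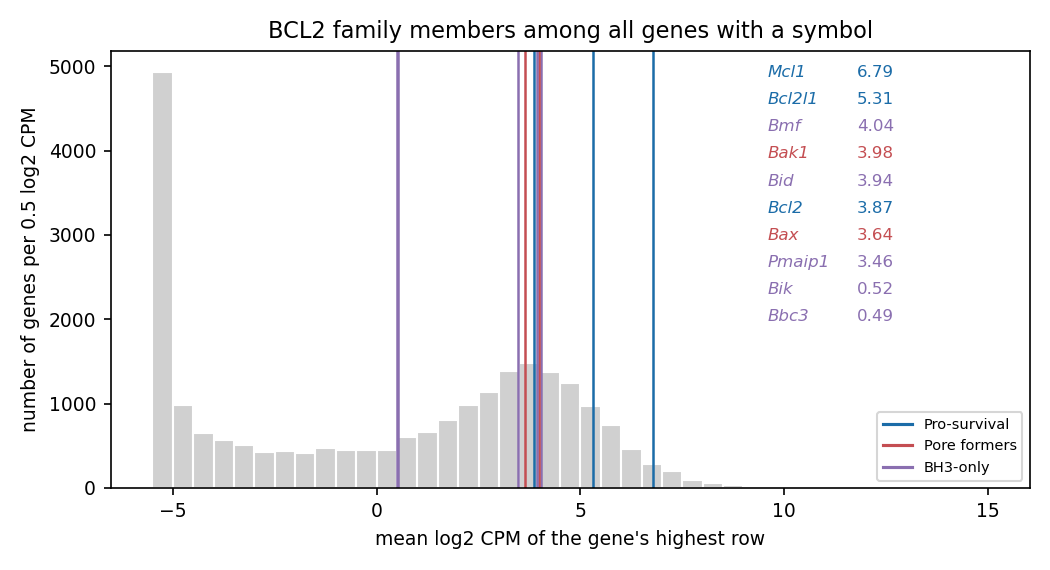
The histogram counts all 23276 genes with a symbol by the mean log2 CPM of their highest row, in steps of 0.5, and the vertical lines mark the members, whose values are listed at the right. *Mcl1* (6.79) and *Bcl2l1* (5.31) lie in the upper flank, 6 members lie between 3.46 and 4.04, and *Bik* (0.52) and *Bbc3* (0.49) lie on the lower flank of the broad peak above the floor, while the tallest bar holds the genes at the floor.

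Transcript lengths differ several fold among the members, from 867 bases for *Bax* to 7191 for *Bcl2*, so levels were also divided by length. On the scale of CPM per kilobase, taken for the RefSeq transcript, *Mcl1* remained first at 32.4, followed by *Bcl2l1* at 15.8 and *Bax* at 13.9. *Bid* (7.03) and *Bak1* (6.61) came next, then *Pmaip1* (4.04) and *Bmf* (3.55). *Bcl2* (2.03), *Bik* (1.5) and *Bbc3* (0.775) were last. The median of all 19008 genes with a length was 1.43 CPM per kilobase, and *Bbc3* was the only member below it. Among those with at least 1 CPM the median was 4.11 CPM per kilobase, and *Pmaip1*, *Bmf*, *Bcl2*, *Bik* and *Bbc3* lay below that. *Bax* moved up most when length was allowed for, from place 7 by CPM to place 3, and *Bmf* moved down most, from place 3 to place 7.

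Per kilobase, *Mcl1* was 15.9-fold above *Bcl2* and *Bcl2l1* was 7.76-fold above it, so the pro-survival gene that gives the family its name was the least abundant of the 3 pro-survival members. *Mcl1* exceeded *Bbc3* 41.8-fold. *Bax* was 2.11-fold above *Bak1* per kilobase, although its CPM was the lower of the pair. Some neighbours in the order were very close, with 1.13-fold between *Bcl2l1* and *Bax*, 1.06-fold between *Bid* and *Bak1* and 1.14-fold between *Pmaip1* and *Bmf*. Without values for single mice it cannot be said whether any neighbours differ beyond the spread. The pro-survival genes together made up 57.3% of the members' summed CPM per kilobase, the pore formers 23.4% and the BH3-only genes 19.3%. These shares describe RNA and not protein, and they depend on which genes were listed as members. Family genes left out of them include *Bnip3* (27.5 CPM per kilobase), *Bnip3l* (22.4) and the pro-survival gene *Bcl2l2* (8.75).

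Of 16 further genes of the family, 9 reached 1 CPM, a share close to the 55.9% of all genes that did. The highest were *Bnip3l* (72.6 CPM) and *Bnip3* (48.8 CPM), whose products mark mitochondria for autophagy, followed by the pro-survival gene *Bcl2l2* (33.5 CPM) and the mitophagy receptor gene *Bcl2l13* (22.3 CPM). Further death genes lay between *Bik* and *Pmaip1* in CPM, with the BH3-only gene *Bad* at 9.07 CPM, *Bok*, a relative of the pore formers, at 6.67 CPM and *Bcl2l11* at 6.24 CPM. *Bcl2l12* and *Bcl2l14* were low, at 2.89 and 1.4 CPM. Under 1 CPM were *Bcl2l15* (0.208), *Hrk* (0.0497) and *Bcl2l10* (0.0292). *Bcl2a1a*, *Bcl2a1b*, *Bcl2a1c* and *Bcl2a1d*, near-identical copies known from blood cells, were at 0.0587, 0.309, 0.0277 and 0.0422 CPM. Reads shared by these copies may have been lost with the alignments of low mapping quality, so these values may be too low. Per kilobase, *Bcl2* (2.03) lay between *Bcl2l13* (3.23) and *Bcl2l12* (1.96), and *Mcl1* was the only member above *Bnip3* (27.5).

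**Figure D4:**
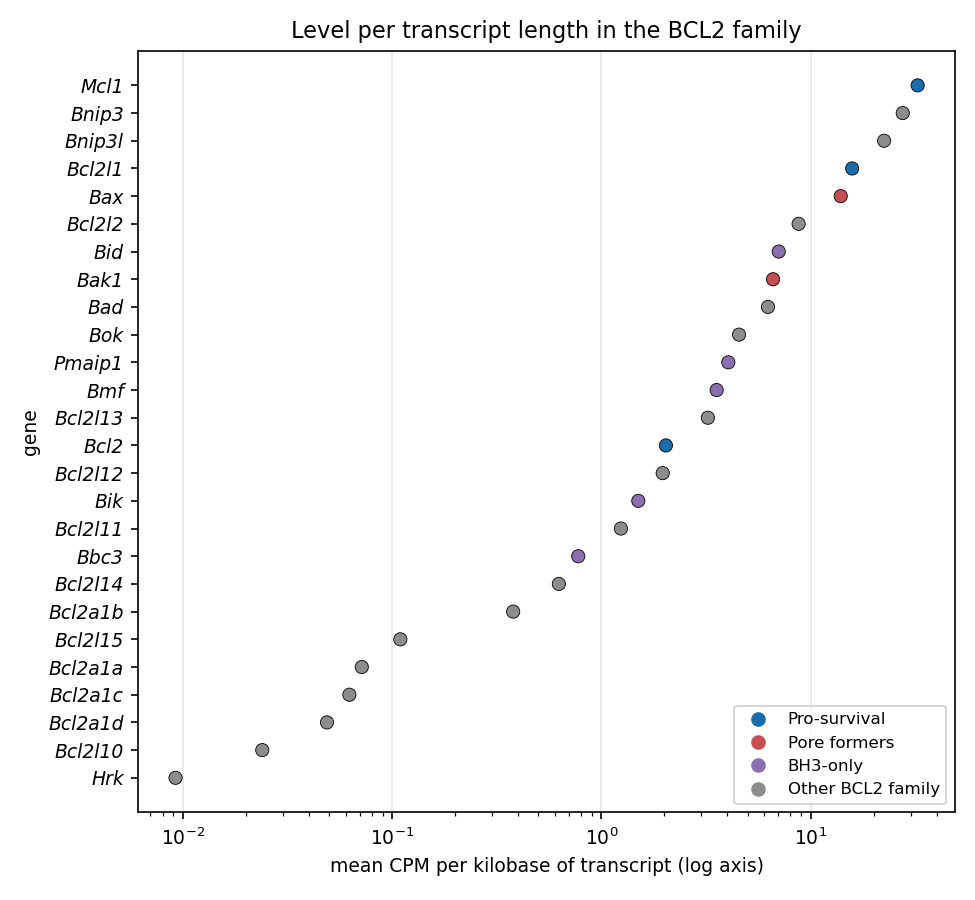
Mean CPM per kilobase of the RefSeq transcript (log axis) for the 10 members, coloured by role, and 16 other genes of the family in grey. *Mcl1* is at the top at 32.4 and *Hrk* at the bottom at 0.00923, and no member lies under 0.775.

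Genes that act after the mitochondrial step were all detected. All 12 genes of the caspase, apoptosome and inhibitor list reached 1 CPM, against 55.9% of all genes. The median of the list was 11.4 CPM. Levels ranged from 3.12 CPM for *Birc5* to 217 CPM for *Cycs*, which encodes the cytochrome c that the pores release. *Apaf1*, which forms the apoptosome with it, stood at 6.25 CPM and the initiator *Casp9* at 12.1 CPM. The caspase inhibitor *Xiap* was at 65.0 CPM, and *Diablo*, whose product relieves that inhibition, at 15.8 CPM. The 3 channel genes *Vdac1*, *Vdac2* and *Vdac3*, of which VDAC2 binds BAK1, ranged from 58.6 to 236 CPM. Per kilobase, *Vdac2* (48.0) was above every member, whereas *Xiap* (9.90) was below *Bax* and above *Bid*.

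The members lie on 8 chromosomes, and the coordinates that follow are those of the genes in GENCODE on GRCm38. *Bcl2* lies at chr1:106538178-106714274, *Bcl2l1* at chr2:152780668-152831728, *Bax* at chr7:45461697-45466898, *Bak1* at chr17:27019810-27029009, *Bid* at chr6:120891930-120916853 and *Bmf* at chr2:118528757-118549687, all on the reverse strand. *Mcl1* lies at chr3:95658788-95663176, *Bbc3* at chr7:16308393-16318205, *Bik* at chr15:83526862-83544634 and *Pmaip1* at chr18:66458533-66465565, on the forward strand. *Bcl2* spans the longest stretch because of the intron between its 2 exons.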

How the data were processed

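Strand-specific total RNA libraries of 6 kidneys were read as single ends of 51 bp. After trimming, the authors mapped the reads to mm10 with TopHat 2.0.12 and the iGenomes annotation, and dropped alignments of low mapping quality. The submitters' notes also name Cufflinks, featureCounts (Subread 1.4.6) and edgeR 3.2.4. The strand setting of the counting is not given in the sources used here.

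The value used is the authors' deposited mean log2 CPM of each transcript over all kidneys. The deposited columns of the authors' own group comparison (log2 fold change, likelihood ratio statistic, p-value and adjusted p-value) were not used, and 0 columns of values for a single kidney were used. The quasi-likelihood test planned for DKO against SKO needs counts per kidney and was not run. The depth is unknown.

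Values were raised to CPM. A gene was represented by its row with the highest mean. For levels per length, a gene's highest RefSeq mRNA row was divided by the length of the GENCODE M21 transcript with that RefSeq identifier and the same symbol (24638 of 26550 RefSeq mRNA rows matched). The 3′-UTR is the sequence after the stop codon of that transcript. Percentiles give the share of genes at or below a level. The seed search was tested on simulated data. Python 3.11.15, pandas 2.3.3, numpy 2.4.6 and matplotlib 3.10.9 were used.

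The members and lists were chosen with earlier results of these data known. Named genes are all members, all of the other family list, the ends of each further list, the targeted genes and some tissue markers. *Gm45808*, *Ggnbp1*, the genes named within the caspase, channel, death receptor and p53 lists and the tissue markers given were chosen outside that rule. The seed search was added after the table was seen. Alternatives were the sum, the median or the RefSeq rows of a gene, genes from 1 CPM, and levels with no length term.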

Additional observations from a re-analysis of the deposited data

How the results depend on the processing

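A level counted as moved when it changed by more than 1.5-fold, a percentile when it changed by more than 10 points. With RefSeq mRNA rows only, no member's level moved. The sum of the rows raised 6 genes, to 145 CPM for *Bcl2l1*, 36.6 for *Bax*, 31.3 for *Bak1*, 30.8 for *Bid*, 31.8 for *Bmf* and 4.21 for *Bik*. Identical rows such as those of *Bax* show that the same reads can be counted more than once in such a sum. The median of the rows lowered *Bcl2* to 8.38 CPM and *Bak1* to 7.62 CPM. Without the 2 *Bak1* rows numbered among forward-strand genes, an alternative chosen after seeing the data, the median was 15.3 CPM and the sum 30.5 CPM. Among genes with at least 1 CPM, the percentile fell to 54.9 for *Bcl2*, 49.7 for *Bax*, 57.3 for *Bak1*, 3.44 for *Bbc3*, 45.4 for *Pmaip1*, 56.5 for *Bid*, 3.75 for *Bik* and 58.7 for *Bmf*. With no length term, 6 genes changed place, *Bmf* to 3, *Bak1* to 4, *Bid* to 5, *Bcl2* to 6, *Bax* to 7 and *Pmaip1* to 8, while *Mcl1*, *Bcl2l1*, *Bik* and *Bbc3* kept theirs. When a seed match had to be followed by an A, also chosen after seeing the data, *Bcl2*, *Bak1* and *Bid* kept 0 matches and *Bmf* kept 1. Values per kidney would be needed for the planned quasi-likelihood test, for another filter on low counts and to omit single replicates. None of these was run. No paired analysis was possible because the values used hold nothing per kidney. The unknown depth limits what can be said of genes near the floor.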

Other observations

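Genes that feed signals to the members were mostly expressed. Of 9 genes of the death receptor pathway, which reaches the mitochondria through *Bid*, 8 reached 1 CPM, against 55.9% of all genes. The median of the 9 was 6.03 CPM. *Cflar*, an inhibitor of caspase-8, was highest at 79.0 CPM, and *Casp8*, whose product cleaves BID, stood at 12.4 CPM. The receptor gene *Tnfrsf1a* was at 35.4 CPM, *Fas* at 3.83 CPM and its ligand gene *Fasl* at 0.0555 CPM. All 5 genes of the p53 axis reached 1 CPM, from 11.8 CPM for *Trp53* to 71.9 CPM for *Ccng1*. *Mdm2* (20.4 CPM), *Cdkn1a* (14.7 CPM) and *Pmaip1* (11.0 CPM) stood well above *Bbc3* (1.41 CPM). The receptor genes *Fas* (3.83 CPM) and *Tnfrsf10b* (3.45 CPM) lay closer to *Bbc3*. Per kilobase, *Pmaip1* was 5.21-fold above *Bbc3*.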
